A study of Mus musculus with 6 samples.

Results

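A group of 40 cell cycle and DNA replication genes was followed in the peri-infarct myocardium. By role the members comprised 22 genes used in mitosis, 12 genes used in DNA replication and 6 genes controlling the passage from G1 into S phase. A probe set was taken for a gene only when the platform's probe-to-gene table gave that gene as its single symbol. This rule found 37 of the 40 members, each with 1 probe set, among 30176 genes with a probe set of their own. Ccnb1 had no entry under its symbol, and the probe sets of Mcm7 and Ccnd1 were shared with microRNA genes, so these 3 members were not measured here.

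The arrays compared 2 groups of male C57BL/6 mice, with tissue taken 4 weeks after surgery in both. The MI group (3 arrays) had the left descending coronary artery tied off, and tissue was taken from the peri-infarct region of the left ventricle. The sham group (3 arrays) had the operation without ligation, and the matching region was taken. Whether each sample came from its own heart is not stated in the sources, so a p-value here measures the spread between samples, which may be technical.

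A cell that enters the cycle passes a G1 checkpoint driven by D-type and E-type cyclins, which free the E2F factors from the retinoblastoma protein. E2F factors switch on the helicase, clamp and nucleotide enzymes of S phase, and later a second wave of genes builds the spindle, the kinetochores and the cleavage furrow. In the adult heart most cardiomyocytes have left the cycle, and after infarction fibroblasts, macrophages and endothelial cells are the cells best known to divide.

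All values are the deposited log2 signals of Affymetrix mouse transcriptome arrays 1.0, and a log2 fold change is the MI mean minus the sham mean on that scale. Most cell cycle genes gave dim signals. The brightest of 23 background control probe sets on the array read 5.12 to 6.08 in the MI arrays and 5.65 to 5.93 in the sham arrays, while the median background control read 2.69 to 2.96. This brightest control is a strict limit, and 26 of the 37 measured members lay at or below it in all 3 sham arrays, 18 of them mitotic, 6 replication and 2 G1/S genes. In 14 members it was not passed in any of the 6 arrays. Only 7 members (Mki67, Cenpf, Mcm4, Rrm1, Pcna, Ccnd2 and Ccnd3) were above it in every sham array. Median signals over both groups were 5.03 for the mitotic, 5.95 for the replication and 5.59 for the G1/S genes. A low-signal filter kept probe sets with a mean of at least 4.36, the median of all transcript probe sets, and 30 members passed it (16 mitotic, 11 replication and 3 G1/S). Of these, Cenpe alone had a sham mean below the filter, so its higher MI signal brought it in.

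**Figure D1:**
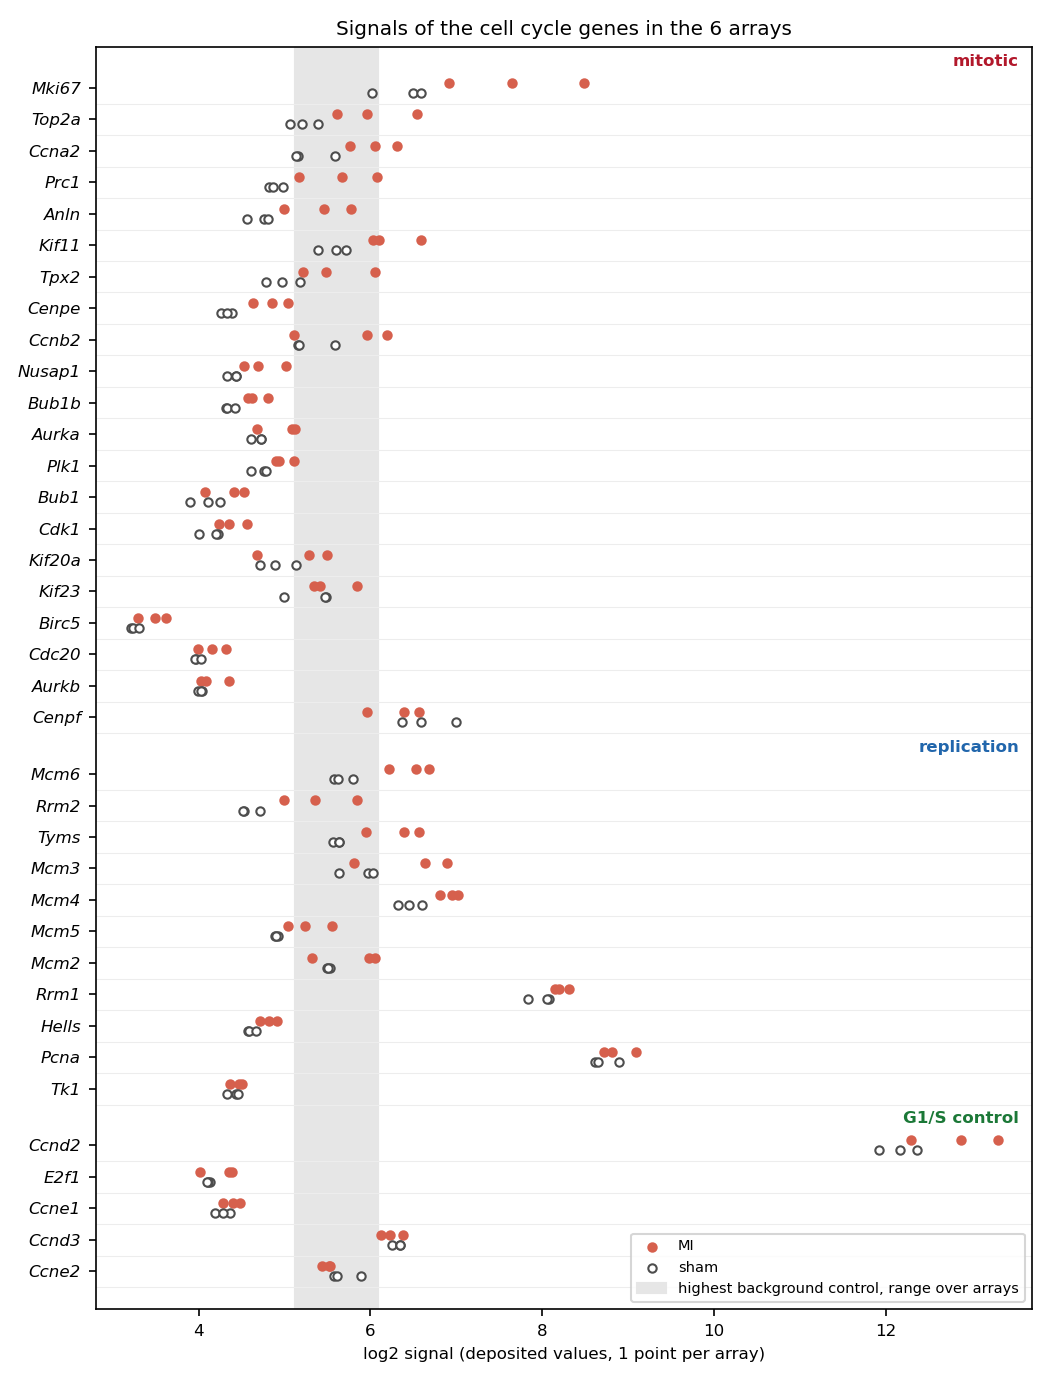
Log2 signal of each of the 37 measured genes in each array, with 3 filled points for MI drawn above 3 open points for sham, and genes grouped by role. The shaded band spans the brightest background control over the arrays (5.12 to 6.08), and most mitotic genes lie inside it or to its left, while Rrm1, Pcna and Ccnd2 lie far to its right.

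Tissue identity and array differences were checked first. The 10 cardiomyocyte markers averaged a log2 level of 17.26 to 17.39 in the MI arrays and 17.32 to 17.50 in the sham arrays, and none was called by limma. These averages joined opposite shifts. Every MI array was below every sham array in 6 markers (Myh6, Tnni3, Pln, Ryr2, Myl2 and Myl3), against 16.8% of all probe sets tested. In 1 marker, Myh7, every MI array was above (log2 fold change 2.07, limma adjusted p = 0.0746), against 15.0%. The averages thus show the markers' presence but not a constant level. The top of the scale is a further limit, since 6 of the 10 read above 16, the log2 of the largest 16-bit value, in every array. Tnnt2 and Actc1 shared 1 value in each of 5 arrays near that top (19.79 to 19.93). No step that gives signals above 16 is described, and the members lie below that range. Fibroblast markers averaged 12.56 to 13.43 in the MI arrays and 9.58 to 10.04 in the sham arrays, and limma called 6 of the 7 measured markers higher. Macrophage markers averaged 9.16 to 9.67 and 8.14 to 8.66 in the MI and sham arrays, and 4 of 9 were called higher. The 6 measured endothelial markers averaged 11.83 to 12.15 in the MI arrays and 12.05 to 12.29 in the sham arrays, and the 5 measured T cell markers averaged 4.23 to 4.46 and 4.05 to 4.24 in the MI and sham arrays, with no call in either list. In bulk tissue, a larger number of cells of one type and more RNA per cell cannot be told apart.

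Sequence before the start site was compared because mitotic and replication genes are known to use different promoter elements. The cell cycle homology region (CHR, searched as TTTGAA) binds complexes that time the mitotic genes, the CCAAT box (CCAAT) binds NF-Y, and E2F sites were searched as TTTCCCGC, TTTGGCGC and TTTCGCGC, all on both strands. RefSeq windows of 300 bases on GRCm38.p6, with 250 bases before and 50 after the start site, were found for 32 of the 40 members (35 windows, 2 of which, both of Prc1, overlap). Ccna2, Aurkb, Kif20a, Tpx2, Mcm4, Ccne2, Ccnd1 and Ccnd2 had none in the table. The stretches shown belong to 2 mitotic and 2 replication genes with large MI to sham differences. Each starts 200 bases before the start site of its window and stops before the outermost annotated start of the gene. All 4 genes lie on the minus strand, and each sequence is written 5′ to 3′ in the direction of its gene, with matches to the searched letters in capitals.
Mki67 (chr7:135716451-135716579): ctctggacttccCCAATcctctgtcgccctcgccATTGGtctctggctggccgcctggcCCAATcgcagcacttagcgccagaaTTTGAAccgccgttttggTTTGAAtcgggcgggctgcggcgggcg
Top2a (chr11:99024200-99024389): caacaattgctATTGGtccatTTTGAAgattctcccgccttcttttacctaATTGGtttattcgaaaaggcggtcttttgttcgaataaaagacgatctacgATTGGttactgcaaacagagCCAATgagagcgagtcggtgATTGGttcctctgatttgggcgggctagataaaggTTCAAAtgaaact
Mcm6 (chr1:128359706-128359905): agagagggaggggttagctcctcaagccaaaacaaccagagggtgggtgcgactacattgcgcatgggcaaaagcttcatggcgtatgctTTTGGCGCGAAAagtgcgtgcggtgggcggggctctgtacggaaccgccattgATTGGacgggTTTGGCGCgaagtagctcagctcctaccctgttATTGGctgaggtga
Tyms (chr5:30073646-30073825): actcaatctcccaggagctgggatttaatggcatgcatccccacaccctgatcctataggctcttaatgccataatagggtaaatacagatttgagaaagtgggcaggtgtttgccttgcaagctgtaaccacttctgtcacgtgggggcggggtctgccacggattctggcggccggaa

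Mki67 carried CHR letters at -116 and -98 and 3 CCAAT boxes, and Top2a carried CHR letters at -179 and -23 among several CCAAT boxes. Mcm6 carried 3 E2F matches, at -110, -106 and -47, the first 2 overlapping on opposite strands so that their capitals run together. The Tyms stretch held none of the searched letters. Over all members, CHR letters were in 14 of 19 mitotic windows (73.7%), in 1 of 12 replication windows (8.33%, Mcm2) and in 0 of 4 G1/S windows, against 17.9% of all 32851 windows in the table. E2F letters ran the other way, in 1 of 19 mitotic windows (Cdk1) and 5 of 12 replication windows (41.7%, of Mcm3, Mcm5, Mcm6, Mcm7 and Hells), against 1.85% of all windows. CCAAT boxes were in 84.2% of mitotic and 75% of replication windows, against 37.4% of all windows. A match is a string of letters and was not tested as a binding site.

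**Figure D2:**
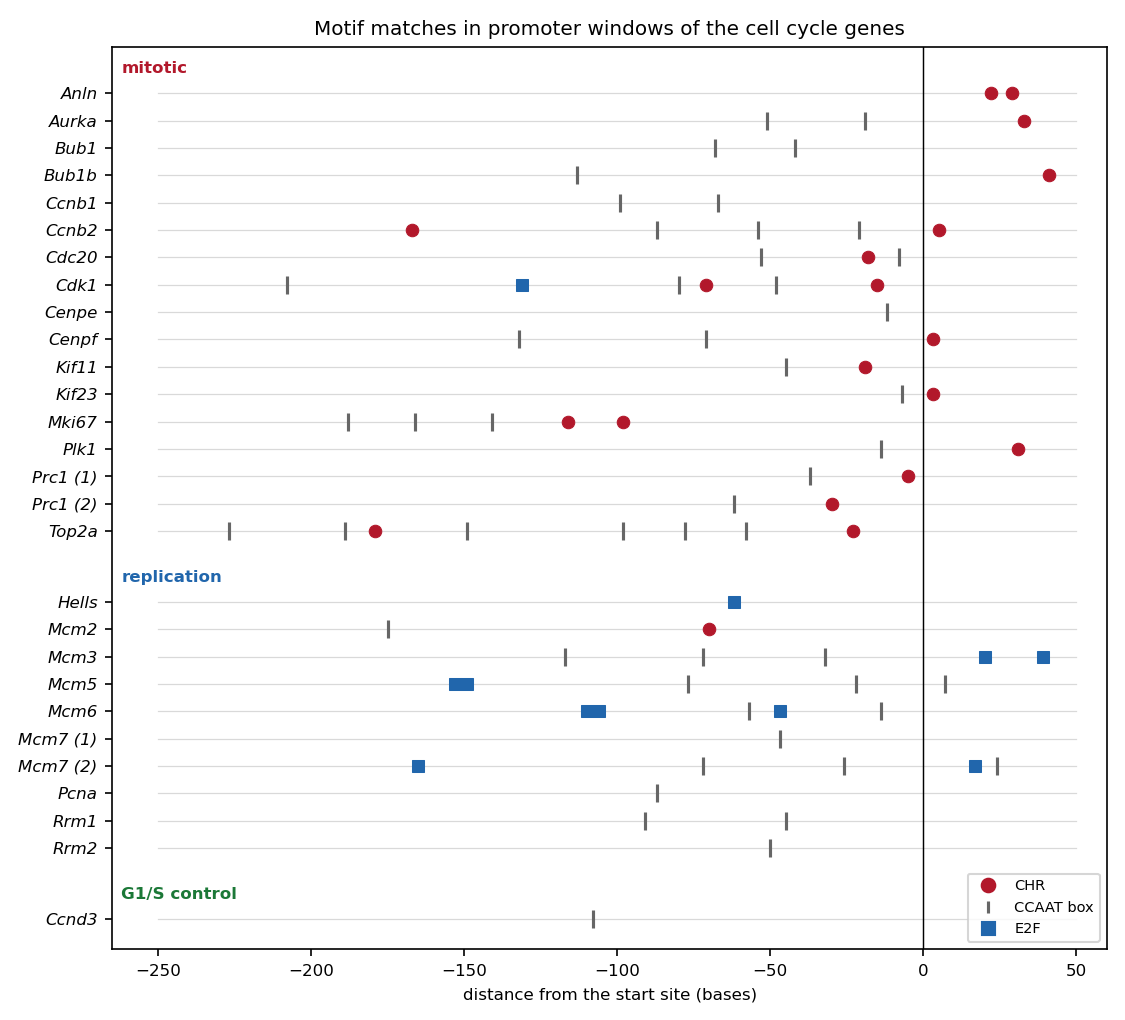
Position of each motif match in the promoter windows of the members, in bases from the start site (x axis), for the windows that hold at least 1 match. Circles (CHR) fall almost wholly in the mitotic rows and squares (E2F) almost wholly in the replication rows, while CCAAT boxes (ticks) appear in both.

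Across the members, the MI signal was on the higher side for nearly every mitotic and replication gene, but only 1 difference passed the test. The log2 fold change was positive for 20 of 21 mitotic genes, 11 of 11 replication genes and 3 of 5 G1/S genes, the exceptions being Cenpf, Ccne2 and Ccnd3. Under quantile normalization Tk1, at 0.04 here, also turned negative. Of all probe sets tested, 52.0% had a positive log2 fold change, as did 42.0% of those of protein-coding genes. Medians were 0.31 for the mitotic, 0.38 for the replication and 0.11 for the G1/S genes, beside 0.01 over all 32979 probe sets tested and -0.05 over those of protein-coding genes. With limma, and p-values adjusted by Benjamini-Hochberg over every tested probe set, 1 of the 30 members tested was called higher at an adjusted p under 0.05 (Mcm6) and 0 lower, while 17 had an unadjusted p under that value, as did 24.7% of all probe sets tested. Over all probe sets tested, 2.97% were called higher and 3.64% lower, and among those of protein-coding genes 4.27% were called higher, so the members' share of calls was near the background.

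Separation of the 2 groups was more frequent than the call. Every MI array read above every sham array in 19 of the 37 measured members (12 mitotic and 7 replication genes), of which 18 were among the 30 tested, against 15.0% of all probe sets tested and 16.2% of those of protein-coding genes. Every MI array read below every sham array in 1 member (Ccne2), against 16.8% of all probe sets tested. The count of separated members was 16 after each array was centred on its median and 17 after quantile normalization, when 11.7% and 11.1% of all probe sets tested were separated this way. Without MI array 3 it was 31, against 23.8% of all probe sets tested. With 3 arrays against 3, an exact permutation test of a single gene cannot go below p = 0.1.

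**Figure D3:**
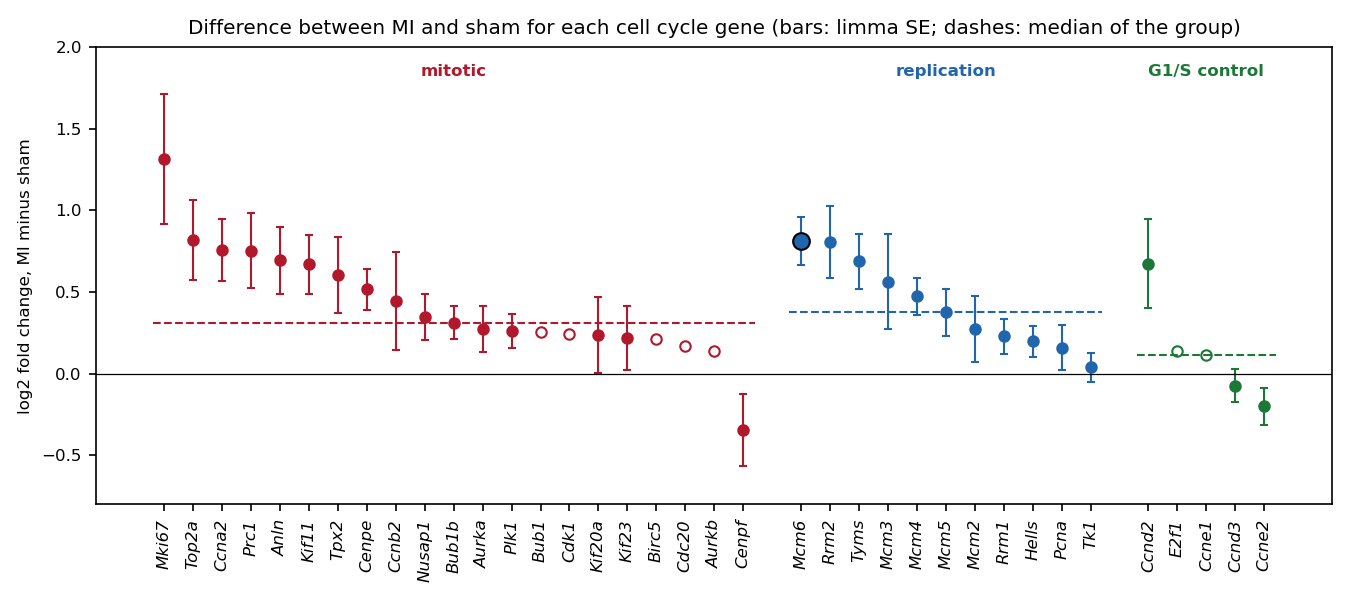
Log2 fold change, MI minus sham, of each measured gene with its limma standard error, ordered by size within each role, with dashes at the median of each role. Mcm6, the one called gene, is the large outlined point, open points mark genes below the low-signal filter, and only Cenpf, Ccne2 and Ccnd3 lie below 0.

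Among the mitotic genes, the proliferation marker Mki67, whose protein coats chromosomes in mitosis, had both the highest signal and the widest difference. Its log2 signals were 7.65, 8.49 and 6.92 in the MI arrays and 6.02, 6.49 and 6.59 in the sham arrays. All 3 MI arrays were above all 3 sham arrays, and MI array 3 was only slightly above the highest sham array. The log2 fold change was 1.32 (SE 0.40, limma adjusted p = 0.109), the only member with a mean difference of 2-fold or more. It ranged from 0.92 without MI array 2 to 1.70 without MI array 3.

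Top2a, the topoisomerase that disentangles sister chromatids, read 5.96, 6.54 and 5.61 in the MI arrays and 5.06, 5.20 and 5.39 in the sham arrays. Ccna2, the cyclin that works with Cdk2 in S phase and with Cdk1 at mitotic entry, read 6.06, 6.31 and 5.76 in the MI arrays and 5.15, 5.13 and 5.58 in the sham arrays. In both genes MI array 2 was the highest, and the groups did not overlap. The log2 fold changes were 0.82 for Top2a (SE 0.24, limma adjusted p = 0.105) and 0.76 for Ccna2 (SE 0.19, adjusted p = 0.0711). All sham signals of both were at or below the brightest background control of their array.

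Genes of the spindle gave differences of the same order. Kif11, the kinesin that pushes spindle poles apart, read 6.10, 6.59 and 6.03 in the MI arrays and 5.72, 5.39 and 5.60 in the sham arrays, a log2 fold change of 0.67 (SE 0.18, limma adjusted p = 0.0823). Tpx2, which activates Aurora A on spindle microtubules, read 5.49, 6.05 and 5.21 in the MI arrays and 4.78, 4.97 and 5.17 in the sham arrays, a log2 fold change of 0.61 (SE 0.23, limma adjusted p = 0.177). In Kif11 the lowest MI array was 0.31 above the highest sham array, while in Tpx2 MI array 3 and sham array 3 nearly met. For Kif11, 2 of the 3 sham arrays were at or below the brightest background control, and for Tpx2 all 3 were. Nusap1, which bundles spindle microtubules, read 4.53, 5.02 and 4.69 in the MI arrays and 4.33, 4.43 and 4.43 in the sham arrays (log2 fold change 0.35, SE 0.14, adjusted p = 0.196). Its groups were close but separate, and all 6 signals were below the brightest background control.

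The kinetochore and checkpoint genes were dim. Cenpe, the kinesin that carries chromosomes to the metaphase plate, read 4.86, 5.04 and 4.63 in the MI arrays and 4.26, 4.38 and 4.33 in the sham arrays, (log2 fold change 0.52, SE 0.13, limma adjusted p = 0.0651). It entered the test only through its MI signals. Bub1b, the checkpoint protein BubR1, read 4.62, 4.81 and 4.57 in the MI arrays and 4.32, 4.32 and 4.42 in the sham arrays (log2 fold change 0.31, SE 0.10, adjusted p = 0.124). Both genes were separated between groups at signals where every array was under the brightest background control. Plk1, a kinase of mitotic entry and spindle assembly, read 4.93, 5.11 and 4.90 in the MI arrays and 4.61, 4.76 and 4.78 in the sham arrays (log2 fold change 0.26, SE 0.10, adjusted p = 0.185). Cdk1, the kinase that drives mitotic entry, read 4.36, 4.57 and 4.23 in the MI arrays and 4.00, 4.23 and 4.20 in the sham arrays, a log2 fold change of 0.24, and was not tested because its mean was under the filter. For both kinases the lowest MI array and the highest sham array lay close together. The 6 mitotic kinases and kinase-like checkpoint proteins (Cdk1, Aurka, Aurkb, Plk1, Bub1 and Bub1b) spanned 0.14 to 0.31. This range was narrower and lower than that of the 4 genes of the midzone and cytokinesis (0.22 to 0.75). Of the 4, Kif20a and Kif23, at 0.24 and 0.22, lay within the range of the 6. All sham signals of both sets were at or below the brightest background control of their array. In the MI arrays the 6 stayed there, while each of the 4 had an MI array above it. That MI difference is part of the fold change and is no separate measure of signal level. The cause of the contrast was not tested.

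In the midzone and cytokinesis set, Prc1, which crosslinks the central spindle, read 5.67, 6.08 and 5.16 in the MI arrays and 4.81, 4.86 and 4.98 in the sham arrays (log2 fold change 0.75, SE 0.23, limma adjusted p = 0.111). Anln, the anillin scaffold of the contractile ring, read 5.46, 5.77 and 4.99 in the MI arrays and 4.57, 4.76 and 4.81 in the sham arrays (log2 fold change 0.69, SE 0.21, adjusted p = 0.105). MI array 2 was the highest and MI array 3 the lowest of the MI arrays in both, with no overlap between groups. The sham signals of both genes were all at or below the brightest background control of their array. The kinesins Kif20a and Kif23, which also serve cytokinesis, had overlapping groups and log2 fold changes of 0.24 and 0.22.

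The remaining mitotic genes did not separate the groups. Ccnb2, a B-type cyclin, read 5.95, 6.19 and 5.11 in the MI arrays and 5.16, 5.17 and 5.58 in the sham arrays, so that MI array 3 was the lowest of all 6 (log2 fold change 0.45, SE 0.30, limma adjusted p = 0.405). Cenpf, a large kinetochore and nuclear matrix protein, was the one mitotic gene on the lower side, with 6.39, 5.96 and 6.56 in the MI arrays and 6.58, 6.37 and 6.99 in the sham arrays (log2 fold change -0.34, SE 0.22, adjusted p = 0.386). It was also 1 of only 2 mitotic genes, with Mki67, above the brightest background control in every sham array, and its groups overlapped. The Aurora kinase Aurka had a log2 fold change of 0.28. Bub1, Birc5, Cdc20 and Aurkb, all under the filter, had log2 fold changes of 0.25, 0.21, 0.17 and 0.14. Altogether 7 members were under the filter, with signals of 3.21 to 4.57 in any array, and when they were tested without a filter their adjusted p-values were 0.396 to 0.656.

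The replication genes held the one call. Mcm6 (probe set TC0100003026.mm.1, chromosome 1), a subunit of the MCM helicase that unwinds DNA at the fork, read 6.53, 6.68 and 6.21 in the MI arrays and 5.80, 5.58 and 5.62 in the sham arrays. All MI arrays were above all sham arrays by a clear margin and above their own brightest background control, whereas 2 of the 3 sham arrays were below theirs. Mcm6 averaged 6.48 ± 0.24 in the MI arrays and 5.67 ± 0.12 in the sham arrays (SD, n = 3 arrays each, limma adjusted p = 0.0331), a log2 fold change of 0.81 (SE 0.15). The adjusted p was 0.0443 without the low-signal filter and 0.0957 with the methods' t-test, and Mcm6 was not called when any 1 array other than MI array 3 was left out. Few probe sets of any kind were called without any 1 of those arrays (0 to 0.992% of all tested).

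The other MCM subunits differed less. Mcm4 read 6.95, 6.81 and 7.02 in the MI arrays and 6.60, 6.44 and 6.32 in the sham arrays (log2 fold change 0.47, SE 0.11, limma adjusted p = 0.0630), and MI array 3 was here the highest of all. Mcm5 read 5.24, 5.55 and 5.04 in the MI arrays and 4.92, 4.89 and 4.90 in the sham arrays (log2 fold change 0.38, SE 0.14, adjusted p = 0.174). Neither gene's groups overlapped. Mcm3 read 6.64, 6.89 and 5.81 in the MI arrays and 5.63, 5.97 and 6.03 in the sham arrays, and Mcm2 read 5.98, 6.05 and 5.32 in the MI arrays and 5.52, 5.50 and 5.51 in the sham arrays. For both, MI arrays 1 and 2 were above all sham arrays and MI array 3 was not, with log2 fold changes of 0.56 (SE 0.29, adjusted p = 0.292) and 0.28 (SE 0.20, adjusted p = 0.446). The 5 measured subunits, whose products form one complex with Mcm7, therefore spanned 0.28 to 0.81. All sham signals of Mcm2 and Mcm5 were at or below the brightest background control of their array.

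Enzymes of nucleotide supply were uneven. Rrm2, the cell cycle-controlled subunit of ribonucleotide reductase, read 5.36, 5.85 and 4.99 in the MI arrays and 4.53, 4.52 and 4.71 in the sham arrays (log2 fold change 0.81, SE 0.22, limma adjusted p = 0.0843). Tyms, which makes thymidylate, read 6.39, 6.56 and 5.94 in the MI arrays and 5.56, 5.63 and 5.63 in the sham arrays (log2 fold change 0.69, SE 0.17, adjusted p = 0.0662). Both sets of sham arrays were tightly grouped and below every MI array, but all of these sham signals were at or below the brightest background control of their array. Rrm1, the partner subunit that is kept more constant through the cycle, was among the brighter members, with 8.15, 8.19 and 8.31 in the MI arrays and 8.08, 7.83 and 8.06 in the sham arrays (log2 fold change 0.23, SE 0.11, adjusted p = 0.255). Its groups did not overlap, but the gap between them was narrow. Tk1, a thymidine salvage kinase, had overlapping groups and a log2 fold change of 0.04.

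Hells, a chromatin remodeller linked to DNA methylation, read 4.82, 4.91 and 4.71 in the MI arrays and 4.57, 4.59 and 4.67 in the sham arrays (log2 fold change 0.20, SE 0.09, limma adjusted p = 0.257). The groups were separate by a small margin. Pcna, the sliding clamp of the polymerases and the brightest replication gene, read 8.81, 8.72 and 9.09 in the MI arrays and 8.89, 8.61 and 8.64 in the sham arrays (log2 fold change 0.16, SE 0.14, adjusted p = 0.521). Sham array 1 exceeded 2 of the MI arrays, so the groups overlapped.

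The G1/S genes showed no shared direction. Ccnd2, a D-type cyclin, was by far the brightest member, with 12.87, 13.31 and 12.29 in the MI arrays and 12.36, 12.16 and 11.92 in the sham arrays (log2 fold change 0.67, SE 0.27, limma adjusted p = 0.194). MI arrays 1 and 2 were above all sham arrays, and MI array 3 was below sham array 1. Ccne2, an E-type cyclin, was the only member in which every MI array was below every sham array, with 5.43, 5.52 and 5.52 in the MI arrays and 5.57, 5.61 and 5.89 in the sham arrays (log2 fold change -0.20, SE 0.11, adjusted p = 0.334). The margin between its groups was small. Ccnd3 had a log2 fold change of -0.07, and Ccne1 and E2f1, both under the filter, had 0.11 and 0.14.

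Mitotic and replication genes were set against each other by their medians and by array. The mitotic median minus the replication median was -0.06 on the log2 scale. The middle of the mitotic log2 fold changes (quartiles 0.24 to 0.67) covered almost the same range as that of the replication genes (0.21 to 0.63), and the difference of medians stayed between -0.13 and -0.03 under every alternative run. Relative to the sham mean of each gene, the median mitotic gene stood at 0.40, 0.52 and 0.22 in MI arrays 1, 2 and 3, and the median replication gene at 0.47, 0.54 and 0.32. In sham arrays 1, 2 and 3 these medians were -0.11, 0.00 and 0.09 for the mitotic genes and 0.01, -0.02 and 0.03 for the replication genes. Both roles thus had the same order of MI arrays, and the G1/S median was 0.12, 0.21 and -0.10 in those arrays. No p-value is given for the roles, because genes of one array are not replicates.

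**Figure D4:**
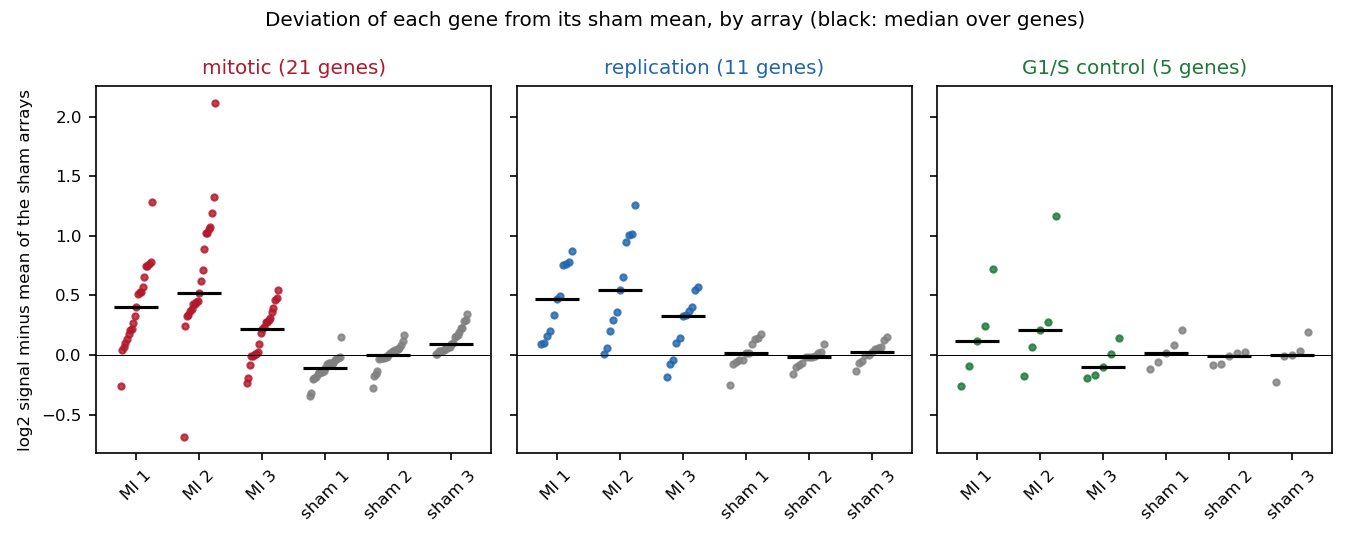
Log2 signal of each gene minus its own sham mean (y axis) in each array, one panel per role, with a black bar at the median over genes. MI array 2 has the highest median in every panel (0.52, 0.54 and 0.21) and MI array 3 the lowest of the MI arrays (0.22, 0.32 and -0.10).

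This order of arrays ran through most members. MI array 2 was the highest of all 6 arrays in 29 of the 37 measured members (18 mitotic, 7 replication and 4 G1/S genes), compared with 17.8% of all probe sets tested and 21.3% of those of protein-coding genes. MI array 3 was the lowest MI array in 30 of 37, compared with 37.5% and 46.2%. The exceptions in which MI array 3 was the highest of all were Birc5, Mcm4, Rrm1 and Pcna. MI array 3 was still above every sham array in 21 of 37 members. Of the MI arrays, MI array 3 was also the lowest in 5 of 7 fibroblast and 6 of 9 macrophage markers, while Lum, Lyz2 and Ccr2 were highest there. This was not particular to them, as it was the lowest in 5 of 7 smooth muscle and pericyte and 4 of 6 endothelial markers. The same held for 4 of 5 T cell, 2 of 3 B cell and 3 of 4 erythroid markers. It held for only 4 of 10 cardiomyocyte, 1 of 6 neutrophil and 1 of 5 mast cell markers. Relative to the sham mean, the median fibroblast marker stood at 4.24, 4.36 and 2.71 and the median macrophage marker at 0.97, 1.37 and 0.58 in MI arrays 1, 2 and 3. Over all transcript probe sets MI array 3 correlated at 0.986 and 0.980 with MI arrays 1 and 2, which correlated at 0.995 with each other. With sham arrays 1, 2 and 3, MI array 3 correlated at 0.985, 0.978 and 0.977. MI array 1 correlated with these sham arrays at 0.987, 0.987 and 0.987, and MI array 2 at 0.984, 0.988 and 0.987. The part of these markers and of MI array 3 in the cell cycle differences was not tested.

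Signal strength was read beside the differences. The 26 members with all sham arrays at or below the brightest background control had a median log2 fold change of 0.28 (range 0.04 to 0.82), and 14 of them separated the groups. The 7 members above it in every sham array had a median of 0.23 with a wider range (-0.34 to 1.32), and 3 of them (Mki67, Mcm4 and Rrm1) separated the groups. All of these separations had MI above sham, as did 15.0% of all probe sets tested and 10.5% of all transcript probe sets without a filter. The 4 members with 1 or 2 sham arrays at or below this control (Kif11, Mcm3, Mcm6 and Ccne2) had a median of 0.62 (range -0.20 to 0.81). The sham signals both define these sets of members and enter the fold change. The medians therefore cannot show how a difference depends on signal strength.

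**Figure D5:**
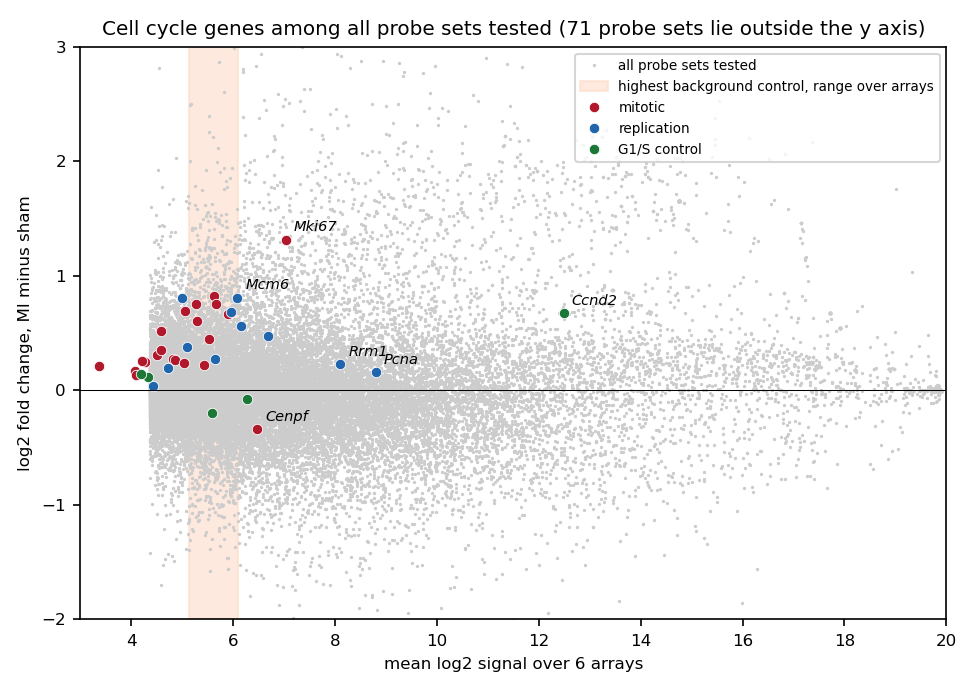
Log2 fold change, MI minus sham (y axis), against mean log2 signal over 6 arrays (x axis) for all probe sets tested (grey; 71 lie outside the y axis) and the measured members (coloured by role). Most members lie above 0 in or left of the shaded range of the brightest background control, and Mki67 stands highest among them at 1.32.

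Further genes of the same pathway were counted with the same test. They were listed by role, but with earlier results of these data known. Among 57 measured further mitotic genes, 51 had a positive log2 fold change, compared with 52.0% of all probe sets tested, and the median was 0.22. In 46 of the 57, all 3 sham arrays were at or below the brightest background control, and in 35 all 6 arrays were. Of the 34 tested, 2 were called higher and 0 lower, against 2.97% and 3.64% of all probe sets tested. Of the 34, 7 passed the filter with a sham mean below it, neither called gene among them. Both called genes are condensin subunits, which compact chromosomes for mitosis and also shape chromosomes outside it. Smc4 read 9.96, 9.74 and 9.60 in the MI arrays and 8.79, 8.95 and 8.76 in the sham arrays (log2 fold change 0.93, SE 0.12, limma adjusted p = 0.0202), and Smc2 read 6.17, 6.41 and 6.25 in the MI arrays and 5.76, 5.77 and 5.62 in the sham arrays (log2 fold change 0.56, SE 0.10, adjusted p = 0.0352). In both genes the groups were far apart relative to their spread, and Smc4 was well above the background controls in every array. For Smc2, 2 of the 3 sham arrays were at or below the brightest background control, and every MI array was above it. Neither was called when any 1 array other than MI array 3 was left out, when only 0 to 0.992% of all probe sets tested were called.

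The other lists had no call. Genes of origin licensing and the replication fork (41 measured, 33 tested) had a median log2 fold change of 0.04, with the largest value in Pole2, a subunit of DNA polymerase epsilon (0.35, limma adjusted p = 0.184). The CDKs, their phosphatases and partners (14 measured, 11 tested) had a median of 0.01, and the pocket proteins, E2F factors and their partners (17 measured, 15 tested) had a median of 0.01. Among 8 measured CDK inhibitors, 6 of them tested, the median was 0.14, with Cdkn3 at 0.54 (adjusted p = 0.204) and Cdkn1a, which encodes p21, at 0.48 (adjusted p = 0.382). The positive values of the MCM subunits were therefore not shared by the median gene of the fork and origin list, whose 5 separated genes on the higher side and 4 on the lower side of 33 tested compare with the 15.0% and 16.8% of all probe sets tested.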

How the data were processed

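Total RNA from 3 MI and 3 sham samples was hybridized to Affymetrix mouse transcriptome arrays 1.0. The deposited values are log2 signals that the authors made with RMA and SKETCH quantile normalization in Affymetrix Expression Console, and their low-intensity filter is not applied in the table. The table held 72688 probe sets and 0 columns of other samples. After 6732 control probe sets were left out, 30638 of 65956 transcript probe sets had 1 gene symbol, 2176 several and 33142 none.

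The MI minus sham difference was fitted by lmFit and eBayes of limma 3.58.1 (R 4.3.3) without covariates. Two-sided p-values were adjusted by Benjamini-Hochberg across the 32979 probe sets whose mean was at or above the 50th percentile (log2 4.36), and a call at an adjusted p under 0.05. The number of arrays limits the precision. The members and lists were chosen with earlier results of these data known. Values in every array are given for members that were called, differed 2-fold, did not overlap between groups, or were brightest in their role (22 genes). Ccnb2, Cenpf, Mcm2 and Mcm3 were given in the same way after their values had been seen.

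The calls, the role medians and the fold changes of the 22 genes were recomputed with a filter at the 75th percentile (log2 6.30) or none, the methods' t-test, array weights, limma's trend and robust settings, centring or quantile normalization of arrays, a replicate block, a gene's probe sets averaged, and each array left out. Leaving out sham array 1 and MI array 3 together was chosen after seeing the data. The fit was tested on simulated data. Correlations and shared values gave no sign of an array deposited under 2 names. MI arrays 1 and 2 shared 152 identical values among 65956 probe sets, more than the 19 to 59 of the other pairs. Motif letters were counted in RefSeq promoter windows of GRCm38.p6. Tables were made in Python 3.11.15 (pandas 2.3.3, numpy 2.4.6) and plots with matplotlib 3.10.9.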

Additional observations from a re-analysis of the deposited data

How the results depend on the processing

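The single call among the members was fragile. Mcm6 was the called member with all arrays, without a filter, with limma's trend and robust options, after centring, after quantile normalization and with a gene's probe sets averaged. With the filter at the 75th percentile only 6 members were tested, Mcm6 not among them, and Mcm4 was called (limma adjusted p = 0.0495). The methods' t-test called 0 members and 0.825% of all probe sets tested. With it 13 members had an unadjusted p under 0.05, as did 22.5% of all probe sets tested. Array weights called 20 members and 32.6% of all probe sets, against 6.61% with the main settings. Leaving out 1 array gave 0 to 14 called members: 14 without MI array 3, when 14.2% of all probe sets were called, and 0 without any other, when 0 to 0.992% of all probe sets were called. Without any 1 of those other arrays, 10 to 13 members had an unadjusted p under 0.05, as did 18.2% to 21.5% of all probe sets. Without sham array 1 and MI array 3 together, an alternative chosen after seeing the data, 10 members, Mcm6 among them, and 13.4% of all probe sets were called. No member was called lower under any of these.

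The median log2 fold change of the replication genes was 0.24 without MI array 2, 0.49 without MI array 3 and 0.50 without both sham array 1 and MI array 3. The cause of these shifts was not tested. With 1 array left out, the mitotic median was 0.21 to 0.42 and the G1/S median 0.06 to 0.16, each within the spread between MI arrays, as was the difference between roles. The lowest G1/S medians were 0.06 without MI array 2 and 0.07 without sham array 2.

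Of the 2 condensin genes, Smc4 was called with the 75th percentile filter, which Smc2 did not pass, and 0 were called with the methods' t-test, the replicate block, or without any 1 array other than MI array 3. The deviations of same-numbered arrays from their group means correlated at -0.287, 0.352 and -0.374. Those of sham array 1 correlated at 0.499 with MI array 3 and at -0.505 with MI array 2. Deviations cancel within each group, so these values are tied to each other and cannot decide whether replicate numbers pair the samples. With the replicate number as a block, 0 members and 0 probe sets in all were called (13 members and 21.5% of all probe sets at an unadjusted p under 0.05). For the 26 members at or below the brightest background control in all sham arrays, signal over background limits what the sham level can show.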
